A study of Mus musculus with 2 samples.

Results

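The cells described here are thymic CD4 T cells with a high S1pr1 transcript count and few transcripts of effector Treg, S100 or proliferation genes. They were selected on the unique molecular identifiers (UMIs, each standing for 1 captured transcript) of 9 genes in the cell itself: at least 3 UMIs of S1pr1, at most 1 UMI over Ctla4, Gpr83, Lrrc32 and Nrp1 together, at most 2 over S100a4 and S100a6, and none of Mki67 or Top2a. Of 4453 singly hashtagged cells, 592 met the rule (13.3%), 306 from one mouse and 286 from the other. The cells came from the thymus of 1 C57BL/6 Foxp3eGFP mouse, whose Foxp3-expressing cells carry green fluorescent protein, and 1 Foxp3eGFPxLta-/- mouse, which carries the same reporter and lacks lymphotoxin alpha. No source used here gives the age or sex of the mice. From each thymus, depleted of CD8+ and CD11c+ cells, 20000 live CD4+CD8-CCR6-CD3e+ cells positive for CD25, for eGFP or for both were sorted, marked with a barcoded CD45 antibody (a hashtag) and loaded in 1 droplet capture. The gate thus admitted Treg cells, CD25+ cells without Foxp3 and eGFP+ cells without CD25. With 1 mouse a genotype no test between groups was possible. Each interval below is a 95% interval that covers counting error alone, with no part for the spread between mice.

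S1PR1 is the receptor by which mature thymocytes sense sphingosine 1-phosphate, which is abundant in blood and scarce in the thymic parenchyma, and follow it out of the organ. The transcription factor KLF2, itself under the control of FOXO1, drives S1pr1. CD69, induced by T cell receptor signals and by interferon, binds S1PR1 and takes it off the surface, so that a cell losing CD69 and gaining KLF2 and S1PR1 is held to be near the end of its thymic stay. Egress itself was not measured here.

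Klf2 stood at the centre of the levels described below, and its proximal promoter is shown for that reason. The sequence is the 250 bases upstream of the RefSeq start on the plus strand of GRCm38.p6, chr8:72318812-72319061, and the capitals mark the motif matches found.

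Klf2: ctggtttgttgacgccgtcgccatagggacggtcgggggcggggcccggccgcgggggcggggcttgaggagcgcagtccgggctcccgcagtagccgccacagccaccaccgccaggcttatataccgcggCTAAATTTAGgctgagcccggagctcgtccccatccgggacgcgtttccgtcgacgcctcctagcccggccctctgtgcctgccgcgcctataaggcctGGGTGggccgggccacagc

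Searched on both strands, it held 1 match to CACCC, the core of the Kruppel-like factor box, as GGGTG starting 19 bases before the gene's start, and 0 matches to the forkhead motif GTAAACA. It also held 1 match to the MEF2 consensus, starting 118 bases before the start, a motif added after the sequence had been seen. MEF2 factors are known regulators of Klf2. Of 32851 mouse promoters of the same length, 52.0% held CACCC, 3.17% GTAAACA and 2.92% the MEF2 consensus. The matches overlapped no other motif searched, and a match is a description of letters, not of a bound site.

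The rule drew a line through a graded quantity. S1pr1 counts in the selected cells had a median of 4 UMIs and a maximum of 17, with 222 cells at exactly 3, while 332 cells that met every other limit stood just outside with 2. A total of 1050 cells had at least 3 S1pr1 UMIs, and 458 of them were left out by another limit, 356 by the Treg genes, 143 by the proliferation genes and 34 by the S100 genes. Within the rule, 438 cells had 0 UMIs of the 4 Treg genes and 154 had 1, while 91 cells otherwise eligible stood outside with 2. For the S100 genes 3 members lay at the limit of 2, and for the proliferation genes 38 otherwise eligible cells stood outside with 1 UMI. Depth did not favour the selected cells, whose median was 4888.5 UMIs a cell against 5579 in the 3861 other cells and 5243 in the 2287 other cells that passed the same limits on the 8 genes besides S1pr1.

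The selected cells carried the transcripts of single-positive CD4 T cells. The summed level of Cd4, Cd3e, Cd3d, Trac and Zbtb7b was 3130 CPM (a gene's UMIs scaled to a group total of 1000000) in the Foxp3eGFP mouse and 3048 in the Lta-/- mouse, against 2756 and 2936 in the other cells. None of the 5 genes was past 1.5-fold in either direction. Markers of other cell types were summed over whole lists. CD8 T cell genes summed to 69.1 and 54.6 CPM (Foxp3eGFP, then Lta-/-) against 115 and 110 in the other cells, double-positive thymocyte genes to 38.7 and 37.5 against 121 and 73.3, and gamma-delta T cell genes to 21.5 and 10.5 against 82.4 and 41.1. B cell genes summed to 12.7 and 21.1 against 323 and 17.2, plasma cell genes to 39.9 and 34.2 against 207 and 39.4, and myeloid or dendritic genes to 110 and 128 against 289 and 276. Genes of innate-like T or NK cells summed to 83.7 and 71.7 against 119 and 108, with 231 of the 241 UMIs in the selected cells from Il2rb, an interleukin 2 receptor chain that Treg cells share. Against the other cells within the limits that list was higher (log2 0.38, 0.16 to 0.59). Rag2, Klrb1c, Ncr1, Mzb1, Krt5, Hba-a1 and Hbb-bs were at 0 UMIs in all 592 cells.

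Against the other cells, the selected cells had higher levels of several genes linked to exit from the thymus, among them Klf2, Klf3 and Foxo1, and lower levels of Cd69, whose product opposes it. The choice on S1pr1 was made within this contrast, so what follows in it is a description. A gene is called higher or lower when its summed CPM differed at least 1.5-fold, counting only genes with 100 or more UMIs over the compared groups. Of 9652 such genes, 481 were higher (4.98%) and 1563 lower (16.2%). A second comparison was with the other cells within the limits, which leaves out cells past a limit on the Treg, S100 or proliferation genes. There 421 of 8518 genes were higher (4.94%) and 1004 lower (11.8%).

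Klf2, marked out with S1pr1 and Gimap3 as a label of these cells, reached 998 CPM in the Foxp3eGFP mouse and 1008 in the Lta-/- mouse, against 631 and 583 in the other cells. Both selected groups lay above both others, by a log2 ratio of 0.72 overall and 0.91 against cells within the limits. Klf3, a relative of Klf2 that binds the same box, was at 229 and 166 against 79.95 and 72.7, the highest ratio among genes at 50 CPM or more in the higher group (log2 1.37, interval 1.24 to 1.5). Foxo1, the factor above Klf2, was at 172 in each mouse against 94.99 and 94.0 (log2 0.87).

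Of the other receptors and adhesion molecules, S1pr4, a further sphingosine 1-phosphate receptor, had a log2 ratio of 0.92 and Rasa3, a GTPase-activating protein that restrains integrins, 1.15 (1.01 to 1.29). The integrin genes Itga4 and Itgb7, whose products pair for entry into gut tissue, were at 0.50 and 0.40 and passed 1.5-fold only against cells within the limits (0.89 and 0.69). Ccr7, which leads cells into the thymic medulla and into lymph nodes, differed little (0.24). Cd69, the antagonist of S1PR1, was at 43.1 and 78.3 CPM against 93.1 and 125, lower in the selected cells of each mouse (log2 -0.85). Ccr9, a receptor for a thymic and gut chemokine, was at 48.2 and 36.9 against 96.0 and 123 (log2 -1.35). Lower levels were also seen for Cxcr4 (log2 -1.24, but 0.11 when the limits on the other genes were lifted), Gpr183 (-0.94), Plxnd1 (-0.72), Ccr4 (-2.27) and Sgpl1, which encodes the lyase that degrades sphingosine 1-phosphate (-0.98). Over the egress and homing list, S1pr1 left out, 6 of 23 genes were higher and 6 lower, with a median log2 ratio of 0.16 beside -0.061 over all genes tested.

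Among cells within the other limits, most of the difference in Klf2 and Ccr9 lay between cells with 0 and with 1 or 2 S1pr1 UMIs. These counts are below the threshold of the rule. Klf3 and Foxo1 rose further across the selected classes. Klf2 was at 379 CPM in the 1478 cells with no S1pr1 UMI, at 791 in the 477 cells with 1, at 943 in the 332 cells with 2, and at 1004, 978 and 1025 in the selected cells with 3, 4 and 5 or more (222, 175 and 195 cells). The intervals of the 3 selected classes overlapped for Klf2. Klf3 stood at 38.8 in cells with no S1pr1 UMI, 92.2 at 1 UMI, 135 at 2 and 171, 199 and 228 in the selected classes. Foxo1 went from 79.7 over 114 and 140.2 to 150.0, 180.5 and 191. For Klf3, Foxo1 and Gimap3 the order of the levels followed that of the S1pr1 count throughout, Gimap3 going from 182 to 691. Ccr9 went the other way, from 191 to 62.2 at 1 UMI, 40.0 at 2 and 37.1 to 48.4 in the selected classes. Tnfrsf9, which encodes the receptor 4-1BB, stood at 363 with no S1pr1 UMI and at 67.2 with 5 or more, and Gadd45b, a stress and activation gene, at 125 and then between 6.04 and 14.8 in the selected classes. Cells with no S1pr1 UMI were the deepest class (median 5469 UMIs, against 4876 to 4937 in the others). After thinning to 3000 UMIs a cell, Klf2 stood at 398 CPM with no S1pr1 UMI, 847 at 1, 986 at 2 and 1007, 1081 and 1080.2 in the selected classes. As all 6 classes come from 1 capture, the levels are given without a test.

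**Figure D1:**
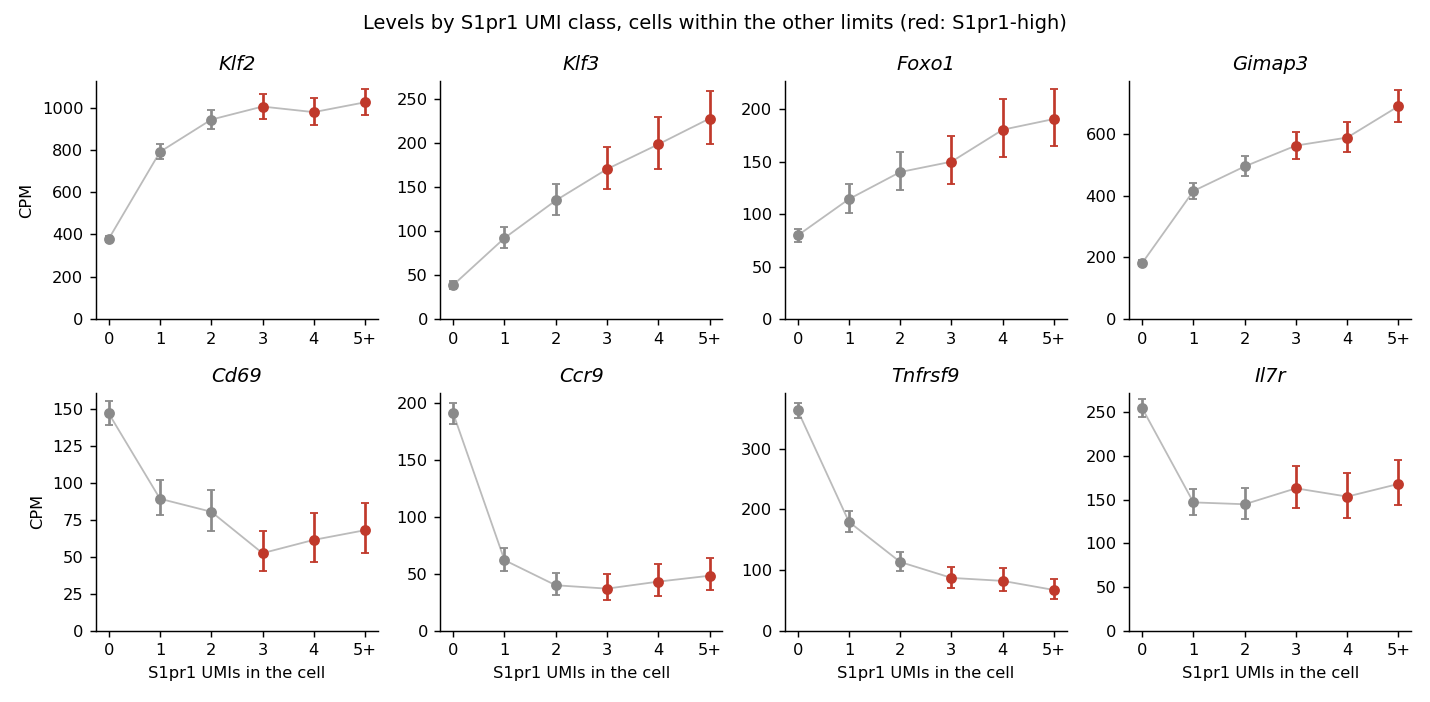
Level of 8 genes (y axis, CPM summed over the cells of a class, linear scale from 0) in cells grouped by their own S1pr1 UMI count (x axis). Only cells within the limits on the 8 other rule genes are plotted, red points are the S1pr1-high cells and bars are exact Poisson 95% intervals for counting error. Klf2, Klf3, Foxo1 and Gimap3 are lowest at 0 S1pr1 UMIs, and Cd69, Ccr9, Tnfrsf9 and Il7r are highest there.

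Genes of resting lymphocytes stood higher in the selected cells. In the quiescence and survival list 11 of 26 genes were higher and 0 lower, and the summed level had a log2 ratio of 0.52 (0.50 to 0.54). Members past 1.5-fold included Socs3, a brake on cytokine receptors (1.20), Il6ra, the interleukin 6 receptor (1.02), Tsc22d3, which encodes the glucocorticoid-induced leucine zipper (0.90), Dgka, which limits diacylglycerol signals (0.82), Peli1 (0.78), Txnip and Pik3ip1, an inhibitor of PI3 kinase (both 0.75). Il7r, the interleukin 7 receptor of the same list, was at 175 and 148 CPM against 196 and 282, a log2 ratio of -0.55 that did not reach 1.5-fold. Within the classes above, Il7r stood at 255 with no S1pr1 UMI and between 145 and 168 from 1 UMI upwards. The GTPases of immunity-associated proteins, needed for lymphocyte survival, were at or above the other cells in all 8 family members tested, 3 of them past 1.5-fold: Gimap3 (log2 1.12), Gimap7 (0.97) and Gimap4 (0.75). Their sequences are alike and their genes adjacent, so the split of UMIs between them is uncertain.

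Interferon-stimulated genes were higher in part. Of 36 tested, 11 were higher and 0 lower, with a summed log2 ratio of 0.44 (0.42 to 0.46). Ifit1bl1 (1.05), Ifit3 (0.99), Slfn5 (0.97), Slfn1 (0.88) and Ifi213 (0.86) passed 1.5-fold. Isg15, among the most strongly induced genes of the type I response, did not differ at that size (-0.13). Genes linked to late CD4 maturation gave 6 higher and 2 lower of 30, the 6 being Rflnb (1.45), Il6ra, Ms4a4b (0.85), Ms4a6b (0.72), Ms4a4c (0.61) and Stk38 (0.70), and the 2 being Nkg7 (-3.25) and Itgb1 (-1.35). The class I genes H2-K1 (0.26), H2-D1 (0.24) and B2m (0.15) were within 1.5-fold.

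Genes of recent T cell receptor signalling and of immaturity were lower. In the T cell receptor list 17 of 26 genes were lower and 0 higher, among them Gadd45b (log2 -2.88), Irf4 (-2.73), Nr4a1, an early reporter of receptor signals (-1.37), Tnfrsf9 (-1.34), Pdcd1, which encodes PD-1 (-1.27), and Myc (-0.86). The same 17 to 0 split was found against the other cells within the limits, where the summed ratio was -0.67 in place of -0.46. In the immature CD4 list 11 of 22 were lower, led by Plac8 (-3.48), Ly6d (-3.29), Nrgn (-3.24) and Cd24a, the classic surface marker lost on maturation (-2.77). Other members, such as Id3 (0.43) and Themis (0.34), stood above the other cells without reaching 1.5-fold. Proliferation genes (21 of 21 lower) and effector genes (18 of 19 lower) are not independent of the rule, which limited Mki67, Top2a, S100a4 and S100a6. Against the other cells within the limits those counts became 9 of 14 and 9 of 13, with summed log2 ratios of -0.53 and -0.49. Of all genes tested there, 11.8% were lower. Of the apoptosis list, 6 of 17 were lower, including the survival genes Bcl2a1d (-2.10), Bcl2l1 (-1.83) and Bcl2a1b (-1.44) and the death genes Bid (-1.53) and Bcl2l11 (-0.95), while Bcl2 was at 0.39. Genes that respond to tissue dissociation gave 1 higher and 4 lower of 15.

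**Figure D2:**
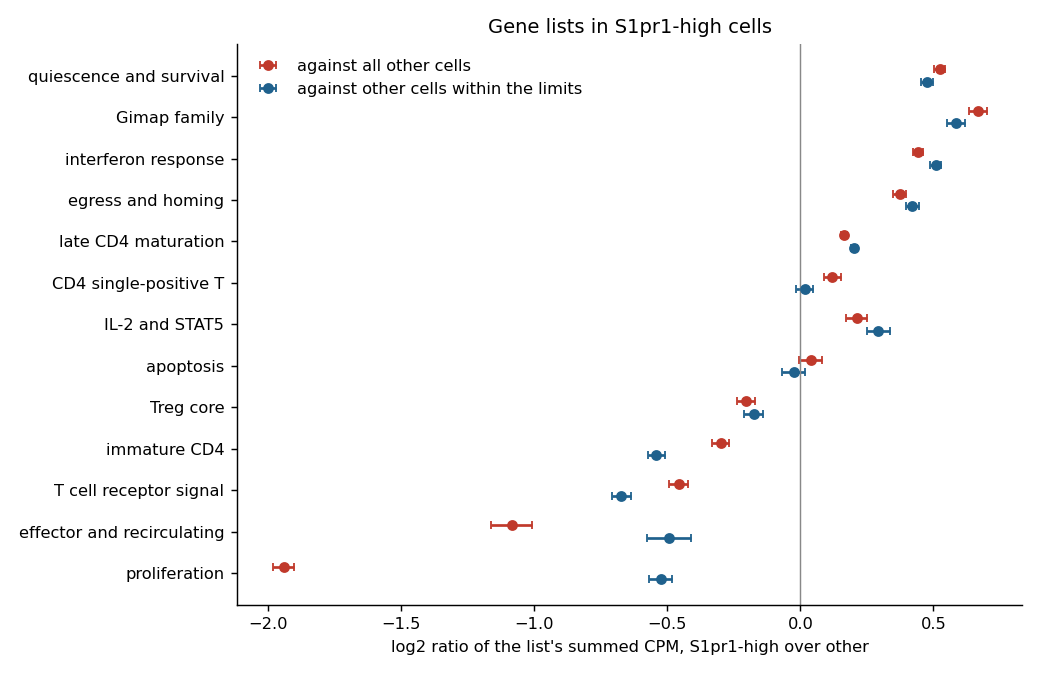
Log2 ratio (x axis) of the summed CPM of 13 gene lists (rows) in S1pr1-high cells over all other cells (red) and over the other cells that pass the same limits on 8 genes (blue), with exact 95% intervals for counting error. The quiescence, Gimap, interferon and egress lists lie right of 0 in both colours. The proliferation and effector lists move towards 0 once cells past the limits are left out of the comparison.

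The genes with the highest ratios beside those named were St8sia6 (log2 1.23) and Cmah (1.22), which act on sialic acids, Acss2, an acetyl-CoA synthetase (1.20), Art2b, an ADP-ribosyltransferase of mature T cells (1.19), Kdm7a, a histone demethylase (1.18), Card6 (1.18), Tmem71 (1.13) and Smad7, an inhibitor of TGF-beta signals (1.10). Against cells within the limits St8sia6, Cmah, Art2b, Card6, Tmem71 and Acss2 were again among the 12 highest, joined by Cd55 (1.38), Ifit1bl1 (1.43) and Foxp3 (1.47). The 12 lowest ratios against all other cells were immunoglobulin Iglc2, with 0 UMIs in the selected cells and 3599 in the others, and 11 genes of mitosis, DNA replication and histones such as Knl1 (2 UMIs against 1647), Nusap1 (4 against 3213) and Ube2c (8 against 4410). Against cells within the limits the lowest were Igha (log2 -5.16), the chemokine Xcl1 (-4.84), Igkc (-4.82), Jchain (-3.73), Gadd45b (-3.32) and Nrgn (-3.25), followed by Bcl2a1d, Srm, Hivep3, Cd74, Marcksl1 and Mettl1 between -2.38 and -1.89. The immunoglobulin ratios rested on the other cells of the Foxp3eGFP mouse, which held 3594 of the 3599 Iglc2 UMIs. Within the limits the other cells of that mouse held 1482 Igha, 4198 Igkc and 710 Jchain UMIs, and those of the Lta-/- mouse 13, 59 and 13. In the Lta-/- mouse alone the levels in the selected and the other cells within the limits were 5.27 and 1.99 CPM for Igha, 13.2 and 9.02 for Igkc and 3.29 and 1.99 for Jchain, so the lower level was not seen there.

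The share of S1pr1-high cells did not separate the mice. They made up 306 of 2209 Foxp3eGFP cells, 13.9% (12.4 to 15.4), and 286 of 2244 Lta-/- cells, 12.7% (11.4 to 14.2), a ratio of 0.920 (0.780 to 1.08). Among cells within the other limits the shares were 21.6% (19.5 to 23.8) and 19.6% (17.6 to 21.7). Under the 8 other cell filters and rules tried, the ratio lay between 0.861 and 0.953. Fewer such cells in the thymus cannot be told apart from a different make-up of the sorted gate.

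Genotype was read from the names of the hashtag features, which number the antibodies differently from the labels' protocol. Lta, the deleted gene, gave 11 UMIs in the selected Lta-/- cells and 49 in the selected Foxp3eGFP cells, 7.24 and 31.1 CPM. Whether the counted end of the transcript lies in the deleted part was not tested. Within the S1pr1-high cells few genes differed between the mice: of 4050 genes tested, 35 were at least 1.5-fold higher in the Lta-/- mouse (0.864%) and 68 lower (1.68%). In the other cells 135 of 9514 were higher (1.42%) and 215 lower (2.26%). Those cells were more numerous, so more genes reached the same minimum of UMIs there. The percentages for the selected and for the other cells thus cover different sets of genes and cannot be compared directly.

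Other genes of the egress list differed little between the mice within the selected cells. S1pr1 itself, at 849 and 817 CPM, was held to at least 3 UMIs in every cell by the rule and is given for description alone. The log2 ratio was 0.01 for Klf2, 0.00 for Foxo1 and -0.05 for Ccr7. Klf3 was lower in the Lta-/- mouse by a ratio short of 1.5-fold (log2 -0.46). All 8 Gimap genes had ratios at or below 0, from -0.04 for Gimap9 to -0.54 for Gimap7, none past 1.5-fold, and Gimap9 reached 0.10 under another setting. The family's summed log2 ratio was -0.22 (-0.28 to -0.16), and it lay between -0.29 and -0.15 over 14 alternatives. Cd69 was the exception in the egress list. It was detected in 69 of 286 Lta-/- cells (24.1%) and 47 of 306 Foxp3eGFP cells (15.4%), with a log2 ratio of 0.86 (0.42 to 1.31). In the other cells Cd69 was also higher in the Lta-/- mouse, by 0.43 (0.32 to 0.54).

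The highest ratios belonged to neighbours of the deleted gene. Glo1, the methylglyoxal-detoxifying glyoxalase, gave 375 UMIs in 204 of 286 Lta-/- cells and 128 UMIs in 104 of 306 Foxp3eGFP cells, 247 against 81.1 CPM (log2 1.61, 1.31 to 1.91). Dnah8, an axonemal dynein gene, gave 402 against 171 UMIs, 265 against 108 CPM (log2 1.29, 1.03 to 1.55). The other cells gave ratios near these, 1.34 for Glo1 and 1.39 for Dnah8. Glo1 lies at chr17:30592861-30612659 and Dnah8 at chr17:30626935-30875762 of GRCm38, 4.61 and 4.58 Mb from Lta at chr17:35203165-35205578. Between them 1700097N02Rik had a ratio of 0.59, and H2-Q7, a class Ib gene 0.236 Mb on the far side of Lta, one of 0.77 (0.58 to 0.96), 0.94 in the other cells. H2-Q7 has near-identical neighbours and its UMIs may include theirs.

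A count around the locus was added after these genes had been seen. Within 10 Mb of Lta, 8 of 101 tested genes were past 1.5-fold (7.92%), 4 higher and 4 lower, against 1 of 97 on the rest of chromosome 17 (1.03%) and 91 of 3793 on other chromosomes (2.40%). The 4 higher ones were the genes already named, Glo1, 1700097N02Rik, Dnah8 and H2-Q7, so the count is not independent of them. The 4 lower ones were Ilrun (-0.80), Ubash3a (-0.73), Phf1 (-0.70) and H2-M3 (-0.59). Of those 4, H2-M3 had a like ratio in the other cells (-0.62), whereas Phf1 stood at 0.39 there. Sequence differences between the mice around the deleted gene and an effect of lymphotoxin alpha cannot be told apart in this design.

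The interferon genes were lower on balance in the Lta-/- mouse. In the selected cells 3 of 32 were past 1.5-fold, all lower in the Lta-/- mouse: Usp18, which shuts off interferon receptor signals (29.0 against 79.9 CPM, log2 -1.46, -1.99 to -0.96), Ifi208 (-0.77) and the guanylate-binding protein gene Gbp2 (-0.65). The summed list had a log2 ratio of -0.29 (-0.32 to -0.25) and a median of -0.33, beside -0.017 over all genes tested. Irf1 (0.21), Igtp (0.19), Samhd1 (0.17), Stat2 (0.09) and Gbp4 (0.05) lay on the other side of 0, and all of these but Irf1 fell below 0 under at least 1 other setting. In the other cells 10 of 36 were lower and the summed ratio was -0.40. Ifi27, an interferon-induced gene outside the list, was higher in the selected Lta-/- cells (0.71, 0.43 to 0.99) and at 0.07 in the other cells.

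Of the remaining genes far apart between the mice, Nrip1, a nuclear receptor corepressor, was at 218 against 381 CPM (log2 -0.81, -1.0 to -0.61) with a like ratio in the other cells. Ly6a, which encodes Sca-1, was at 105 against 179 (-0.78, -1.07 to -0.49), while the other cells stood at 148 and 147. Lmo4 (-0.80), Rab6b (-1.06), Stk39 (-0.91), Vps37a (-0.84), Trim44 (-0.79) and Pde3b (-0.77) were also lower, and Nabp2 (0.92), Abcb9 (0.80), Gnl3 (0.71), Psmc1 (0.69), Crlf2 (0.62) and Borcs8 (0.59) higher. Each of these 6 higher genes had at most 117 UMIs in a mouse, and their intervals all reached below 0.50. Of the lower ones, Rab6b, Stk39, Vps37a and Pde3b had at most 97 UMIs in a mouse. Their intervals ended at -0.51, -0.39, -0.34 and -0.23, and those of Lmo4 and Trim44 at -0.43 and -0.41. Itgb1, the integrin beta 1 chain, was lower in the selected Lta-/- cells (48 against 99 UMIs, log2 -0.99) and higher in the other Lta-/- cells (0.72). In the Foxp3eGFP mouse 1 selected cell held 17 of its 99 Itgb1 UMIs and the top 5 cells 38.4% of them. With the limits on the other genes lifted, the Itgb1 ratio was 0.18.

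**Figure D3:**
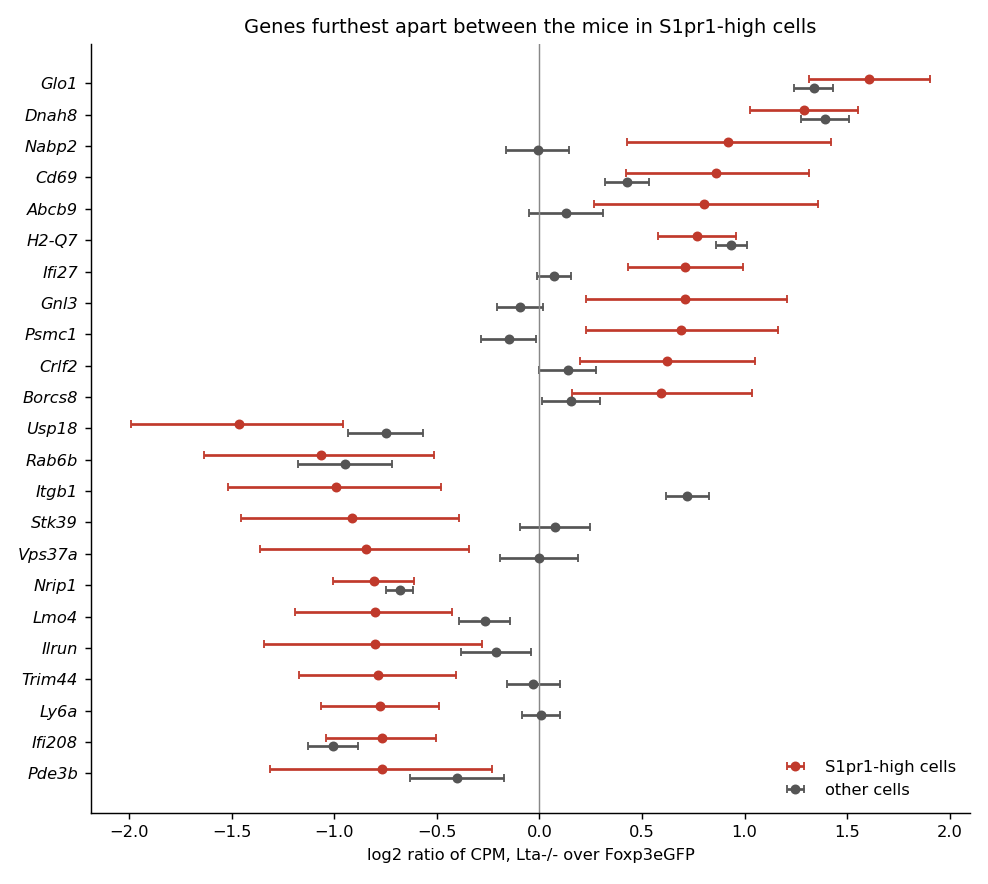
Log2 ratio of CPM, Lta-/- over Foxp3eGFP (x axis), for 11 of the 12 genes with the highest ratio and the 12 with the lowest in S1pr1-high cells (rows), with the same ratio in the other cells (dark points) and exact 95% intervals for counting error. Glo1, Dnah8 and H2-Q7 lie to the right in both groups of cells, while Itgb1 lies at -0.99 in S1pr1-high cells and at 0.72 in the others.

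Foxp3 was not used by the rule, and 160 of the 592 S1pr1-high cells had a Foxp3 UMI (27.0%, 23.5 to 30.8). The share was 28.1% (23.1 to 33.5) in the Foxp3eGFP mouse and 25.9% (20.9 to 31.4) in the Lta-/- mouse. In the other cells it was 20.2% and 17.5%, and in the other cells within the limits 11.7% and 9.35%. Among cells within the limits the Foxp3 level was lowest at 0 S1pr1 UMIs, with 12.8 CPM, and stood at 51.9 at 1, 70.4 at 2 and 66.4, 83.2 and 87.0 in the selected classes. Immature cells within the limits, with at least 3 Ccr9 UMIs and no S1pr1, served as a measure of free RNA. Of these 226 cells, 2 had a Foxp3 UMI (0.885%, 0.107 to 3.16), at a median of 5389 UMIs a cell. After thinning each cell to 3000 UMIs, which left out 32 selected cells, Foxp3 was found in 17.3% of selected cells, 7.19% of the other cells within the limits and 0 of 218 of the Ccr9 cells, which allows up to 1.68%. A cell without a Foxp3 UMI may still transcribe the gene, since depth was only 5012.5 UMIs at the median in those 432 cells and 4630.5 in the 160 with one.

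Cells with a Foxp3 UMI carried more of the Treg programme even though the rule had held 4 of its genes at 1 UMI or less. Of 12 Treg genes tested, Foxp3 itself and the 4 rule genes left out, 11 were at least 1.5-fold higher, where 114 of 4049 genes were higher in all (2.82%) and 124 lower (3.06%). The list was chosen with earlier results of these data known. In the other cells the same split gave 20 of 21 Treg genes higher, so the pattern was not particular to the selected cells. Il2ra, which encodes the CD25 of the sort gate, was at 116 CPM with Foxp3 and 41.3 without in the Foxp3eGFP mouse, and at 150 and 40.6 in the Lta-/- mouse (log2 1.69, 1.28 to 2.11). Rgs1, which dampens chemokine receptor signals, was at 154 and 60.2, then 192 and 67.0 (log2 1.44). Ikzf2, which encodes Helios, was at 1206 and 530, then 848 and 451 (log2 1.07), and Tnfrsf4, the OX40 receptor, at 569 and 277, then 446 and 224 (log2 1.02). In both mice the cells with Foxp3 lay above those without for each of these 4 genes. Gsta4 (1.27), Il2rb (1.00), Arhgap20 (0.85), Tnfrsf18, which encodes GITR (0.79), Ecm1 (0.63), Izumo1r, folate receptor 4 (0.62), and Ikzf4, which encodes Eos (0.61), completed the 11, and Capg stood at 0.32. Il2ra was found in 28.1% of cells with Foxp3 (21.3 to 35.8) and 11.1% of those without (8.31 to 14.5), beside 5.75% of the Ccr9 cells. The Ccr9 cells passed the same gate on CD25 or eGFP, so for Il2ra they are no measure of free RNA.

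Part of the interleukin 2 and T cell receptor lists was higher with Foxp3. The lists overlap, and Ikzf2 counts both as a Treg and as a T cell receptor gene. Cish, a STAT5 target, had a log2 ratio of 1.35 (0.87 to 1.83), and 4 of 11 genes of the interleukin 2 and STAT5 list were higher. The summed log2 ratio of that list was 0.30 (0.22 to 0.38). In the T cell receptor list, which was low in the selected cells as a whole, 7 of 13 genes were higher and 1 lower with Foxp3: Ikzf2, Tnfrsf9 (0.84), Egr1 (0.81), Bcl2l11 (0.80), Nfkbia (0.73), Rel (0.72) and Cd69 (0.71) on one side and Cd40lg, the CD40 ligand (-0.96), on the other. For Bcl2l11 the ratio rested on the Foxp3eGFP mouse and was -0.03 in the Lta-/- mouse alone. The 5 cells with the most Egr1 held 53.5% of its UMIs in the group with Foxp3. Fas, the death receptor, was at 1.15 (0.72 to 1.58). St6galnac3, Snx18, Capn3 and Golga1 completed the 12 highest ratios, each at 1.04 to 1.27 on 100 to 116 UMIs in all.

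**Figure D4:**
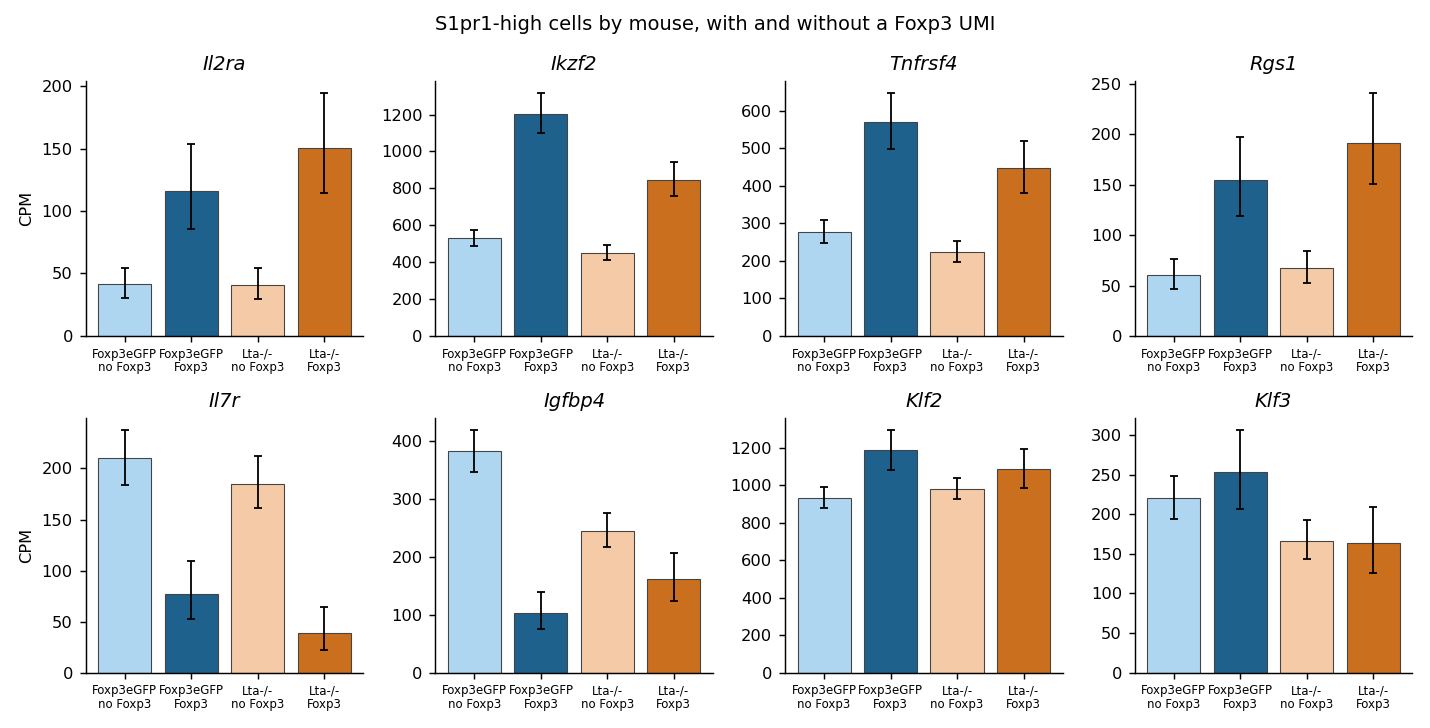
Level of 8 genes (y axis, CPM from 0) in S1pr1-high cells of each mouse without (light) and with (dark) a Foxp3 UMI, with exact Poisson 95% intervals for counting error. Il2ra, Ikzf2, Tnfrsf4 and Rgs1 are higher with Foxp3 in both mice, Il7r and Igfbp4 are lower, and Klf2 and Klf3 differ less.

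Without a Foxp3 UMI, the selected cells had more Il7r, at 210 against 77.2 CPM in the Foxp3eGFP mouse and 185 against 38.9 in the Lta-/- mouse (log2 -1.75 with Foxp3, -2.22 to -1.32). Igfbp4, an insulin-like growth factor binding protein, was at 382 against 104 and 244 against 161 (log2 -1.26, -1.57 to -0.96), the groups lying apart more widely in the Foxp3eGFP mouse. Rflnb, the maturation gene highest in the selected cells, was among the lowest in those with Foxp3 (log2 -1.90, -2.84 to -1.08). Few cells carried these UMIs in the group with Foxp3. The top 5 cells held 46.8% of 47 Il7r UMIs, 46.7% of 105 Igfbp4 UMIs and 69.2% of 13 Rflnb UMIs. Thy1 (-1.02), Tesc (-1.09), Stmn1, a microtubule destabiliser (-1.06), Rgcc (-1.18), Ass1, argininosuccinate synthase (-1.08), Dap (-1.17), Tdrp (-1.06), Timp2 (-0.93) and Hspa9 (-0.89) made up the rest of the 12 lowest. Graded by Foxp3 count, at 0, 1 and at least 2 UMIs (432, 108 and 52 cells), Il2ra stood at 40.9, 106 and 185 CPM, Tnfrsf4 at 251, 468 and 593, Il7r at 198, 62.2 and 51.9 and Thy1 at 164, 102 and 40.8. Ikzf2 stood at 491, 1080 and 941, so its level did not follow the count beyond the first UMI.

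Within the selected cells, all chosen on S1pr1, the egress genes differed little by Foxp3. Klf2 was at 1186 against 931 CPM in the Foxp3eGFP mouse and 1086 against 982 in the Lta-/- mouse (log2 0.25), and the log2 ratio was 0.12 for Klf3 and 0.01 for S1pr4. S1pr1, which the rule fixed at 3 UMIs or more, was at 0.13. Apart from Cd69 (0.71) and Emb, the adhesion molecule embigin (-0.69), no gene of the 19 tested in that list passed 1.5-fold. No Gimap gene did so either, and the family's summed ratio was 0.11 (0.04 to 0.18), beside 0.10 for the egress list. In the other cells the same split gave summed log2 ratios of 0.54 for the Gimap family and 0.31 for the egress list. There 3 of 8 Gimap genes were higher and 0 lower, and 6 of 23 egress genes were higher and 3 lower. The interferon list, at 0.55 with Foxp3 in the other cells, was at -0.03 (-0.07 to 0.01) in the S1pr1-high cells, where 2 of 32 genes were lower and none higher. Whether the ratios of these lists differ between the selected and the other cells was not tested. Late maturation genes gave 3 lower of 27, namely Rflnb, Il7r and Ly6a (-0.64).

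Transcript counts varied beyond random sampling among the selected cells for some genes, as they did among the other cells. After thinning to 3000 UMIs, the ratio of variance to mean over 560 cells, which is 1 for random sampling alone, had a median of 1.06 over 3743 genes. It was highest for Malat1 (14.3), a nuclear RNA, then the receptor constant gene Trbc1 (6.24), Ikzf2 (5.43), Tmsb4x (5.25), Igfbp4 (5.18), Ifi27l2a (4.59), Actb (3.72), Egr1 (3.59), Gsta4 (3.51), Cd52 (3.44), Trbc2 (3.21) and Hsp90ab1 (3.08). In the other cells the ratio was higher for 9 of these 12, among them Malat1 (23.5), Tmsb4x (7.58), Trbc1 (7.09) and Egr1 (4.16), and lower for Ikzf2 (5.28), Igfbp4 (4.47) and Gsta4 (3.45). None of these differences was tested. Igfbp4 had a UMI in 25.5% of the thinned selected cells and Egr1 in 8.93%. Before thinning, over all 592 cells, 1 cell held 30 Igfbp4 UMIs and 5 cells held 27.8% of the Egr1 UMIs. Ikzf2, Igfbp4 and Gsta4 are also genes that separated the cells with and without Foxp3.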

How the data were processed

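Gene and hashtag UMIs were deposited as whole-number counts per gene and barcode in 1 matrix of 1 capture, which the authors made without normalization; the submitters' processing notes name Cell Ranger 6.0.1 and the build mm10 (GRCm38). The hashtag library's features are in that matrix, and 0 columns of per-sample values went unused. Of 4798 barcodes, 4638 passed the filters (500 or more genes, mitochondrial share up to 10%), and 185 of these, at a median of 10532 UMIs, had no hashtag with 80% of the hashtag UMIs and were left out. No doublet caller was run, so doublets within a mouse remain. Total UMIs were 1577782 in the S1pr1-high Foxp3eGFP cells and 1519292 in the Lta-/- ones. No barcode occurred more than once in the matrix.

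Each group's UMIs were added up per gene and scaled to a group total of 1000000 (CPM). Intervals are exact: conditional binomial (Clopper-Pearson) for ratios, Poisson for levels and binomial for shares. UMIs of 1 droplet are molecules, but intervals cover counting error only. Intervals were checked on simulated data for the genotype comparison (4051 genes, true ratio covered for 94 to 98% of genes at each fold). The simulated counts were Poisson draws without clustering of UMIs in cells. The check therefore bears on counting error alone and not on genes whose UMIs vary more between cells. Named genes are the 12 with the highest and the 12 with the lowest ratio in a comparison, with at least 100 UMIs in all and 50 CPM in the higher group, plus members of 17 programme lists. The 9 rule genes, mitochondrial, ribosomal protein, V(D)J, Gm and Rik genes, Xist, Tsix and Y-linked genes were left out of the former. 1700097N02Rik, Lta, Ifi27 as an interferon gene, Phf1, Ubash3a and H2-M3 were named for their position or after their values were seen. Results for 3 genes are not reported here. The members and all lists were chosen with earlier results of these data known. The Klf2 promoter and all gene positions are from RefSeq, GRCm38.p6. Software was Python 3.11.15 with numpy 2.4.6, scipy 1.17.1, pandas 2.3.3 and matplotlib 3.10.9.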

Additional observations from a re-analysis of the deposited data

Results flagged for a closer look

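Itgb1 gave opposite ratios between the mice in the S1pr1-high cells (log2 -0.990, Lta-/- over Foxp3eGFP, from UMIs in 39 of 286 and 59 of 306 cells) and in the other cells (0.72). Between S1pr1-high cells with and without a Foxp3 UMI, 3 genes were higher with Foxp3 while they were lower with it in the other cells: Bcl2l11 (0.80 against -1.12), Tnfrsf9 (0.84 against -0.62) and Slbp, a histone mRNA binding protein gene (0.66 against -0.72). Slbp stood at -0.49 once the limits on the other genes, Mki67 and Top2a among them, were lifted. None of these 4 differences was tested, since each group is 1 mouse or 1 pool of cells. Of the 185 cells with both hashtags, which enter no comparison, 32 met the S1pr1-high rule (17.3%, 12.1 to 23.5), at a median depth of all 185 of 10532 UMIs.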

How the results depend on the processing

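The ratio between the mice in the share of S1pr1-high cells moved by less than its counting interval under all 8 alternatives. The number of genes past 1.5-fold moved with the rules for counting them. Against the other cells it was 2044, and 1336 with at least 300 UMIs a gene, 8408 with no minimum, 807 at 2-fold, 1123 in cells of 4000 to 10000 UMIs and 1234 with cells thinned to 3000 UMIs. Between the mice it was 103, and 10, 4296 and 8 for the first 3 of those settings, 62 when thinned, 52 with S1pr1 at least 5 UMIs and 65 in cells with Foxp3 UMIs. By Foxp3 UMI it was 238, and 29, 4959 and 32 for the same 3, 121 when thinned, 78 with S1pr1 at least 5 UMIs, 411 with no limit on the other genes, 136 in Foxp3eGFP cells alone, 143 in Lta-/- cells alone and 457 with at least 2 Foxp3 UMIs. Of the ratios past 1.5-fold as reported, those that crossed 0 were those of Cxcr4 (0.11), Itgb1 (0.18), Psmc1 (-0.056) and Slbp (-0.49) with no limit on the other genes, Gnl3 (-0.056) between mice in cells with Foxp3 UMIs and Bcl2l11 (-0.029) by Foxp3 in Lta-/- cells alone. Smaller ratios crossed 0 too, such as Isg15 against the other cells (-0.32 to 0.20), Klf2 between mice (-0.13 to 0.08) and S1pr4 by Foxp3 (-0.22 to 0.23). Between 5 or more and 0 S1pr1 UMIs, the log2 ratio of Klf3 was 2.56, and 2.22 when thinned, and that of Ccr9 -1.98, and -2.47 when thinned. The cause of these shifts was not tested, apart from the fewer genes or UMIs that the count minimum, thinning and smaller groups leave. Another scaling moved the share of higher genes among those past 1.5-fold by under 10 percentage points. No paired analysis was possible because each genotype is 1 mouse in 1 capture. At a median of 4888.5 UMIs a cell, genes with few UMIs cannot be compared between groups of this size.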
